A study of Mus musculus with 4 samples.

Results

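The genes described are 29 mouse genes of cholesterol and fatty acid synthesis and of sterol export, taken from a list of pathway members. That list was chosen with earlier results of these data known, so the shares below are not from a blind choice. All 29 had a probe set whose platform annotation gives a single symbol, out of 19938 such genes, and each gene was read from its brightest probe set by mean level. They fall into 16 enzymes of sterol synthesis, 4 regulators and carriers of sterols, 6 enzymes of fatty acid synthesis, and 3 genes of sterol export and oxysterol binding. RNA came from the mouse macrophage-like line RAW264.7, whose cells fuse into bone-resorbing osteoclasts under RANKL, the ligand that induces osteoclasts, and M-CSF, a macrophage growth factor. The 4 groups were cells with a control vector, unstimulated or after 72 h of RANKL and M-CSF at 20 ng/ml, and cells with a vector that expresses the microRNA miR-155, in the same states. The series text has wild-type cells in place of the control vector that the samples' own descriptions name, and does not say whether the dose holds for each cytokine or whether the transfected cells were a pool or a clone. Each group has 1 array, so no difference below has a replicate check, no test was run on it, and the number of arrays limits its precision. The mature miR-155 sequence (RefSeq, GRCm38.p6, chr16:84714143-84714165, plus strand) identifies the molecule that separates the vectors, with its seed, bases 2 to 8, in capitals.
mmu-miR-155-5p: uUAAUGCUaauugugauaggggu

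Cells make cholesterol from acetyl-CoA through mevalonate, farnesyl diphosphate and squalene. The same route supplies the isoprenoid chains that anchor small GTPases in membranes, and in osteoclasts its farnesyl diphosphate synthase is the target of the nitrogen-containing bisphosphonate drugs. The transcription factors SREBP1 and SREBP2 switch on the genes of both lipid pathways when membrane sterol is low, and Insig proteins hold them in the endoplasmic reticulum when it is high. Macrophages dispose of surplus sterol through the exporters Abca1 and Abcg1, which oxysterol-activated LXR receptors induce.

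Values are log2 expression values (RMA), and a difference of 1 is a factor of 2. A gene counted as above the floor, 4.25, when its highest value exceeded the 95th percentile of 1205 probe sets for olfactory or vomeronasal receptors, as 13541 genes did. All 29 genes lay above the floor on all 4 arrays, the lowest value being 6.31 (Elovl6) and the highest 12.54 (Scd2). Differences are counted past 1.5-fold (0.58 on the log2 scale). The absolute difference that 95% of these receptor probe sets stayed under, 0.37 to 0.48 in the comparisons of 2 arrays, served as a noise reference. It comes from dim probe sets and does not replace replicates.

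The stimulated control array stood apart. Over the 13541 genes its Pearson correlation with the other arrays was 0.908 to 0.937, against 0.982 to 0.989 among the other 3. Of 9 osteoclast markers, all were at least 1.5-fold higher with stimulation in control cells, and with miR-155 8 were (Calcr was at -0.13). The sizes differed more than these counts, with a median of 5.85 in control and 3.43 in miR-155 cells. Between the stimulated arrays all 9 were at least 1.5-fold lower with miR-155, against 13.6% of all genes. Of 7 macrophage markers, 5 were at least 1.5-fold lower with stimulation when the vector was the control and none when it was miR-155, while Cd68 (0.29) and Csf1r (-0.36) lay within 1.5-fold in control cells. Of 7 cell cycle genes, all were lower in control cells, with differences from -1.66 (Pcna) to -3.07 (Kif11), and none was past 1.5-fold in miR-155 cells. Of all genes, 12.4% were higher and 15.2% lower in control cells, and 3.43% and 3.74% in miR-155 cells. Some markers also differed between the unstimulated vectors. Ctsk (-2.45), Atp6v0d2 (-0.97) and Adgre1 (-0.91) were lower past 1.5-fold with miR-155, against 3.15% of all genes, and Ocstamp (0.68) higher, against 1.18%. The summed log2 level of the cell cycle list was 69.5 in unstimulated and 53.0 in stimulated control cells, against 70.1 and 69.3 with miR-155. That of the macrophage list was 77.8 and 55.9 with the control vector, against 77.5 and 75.5 with miR-155. The part of these shifts in the lipid gene differences was not tested. In RNA from whole cultures, fewer cells of a type and less RNA per cell cannot be told apart. Lymphocyte markers were near or below the floor (at most 4.84, 1 of 5 above it), stromal and adipocyte markers reached at most 5.79, and the adipocyte hormone gene Adipoq stood at 3.48 to 3.57.

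**Figure D1:**
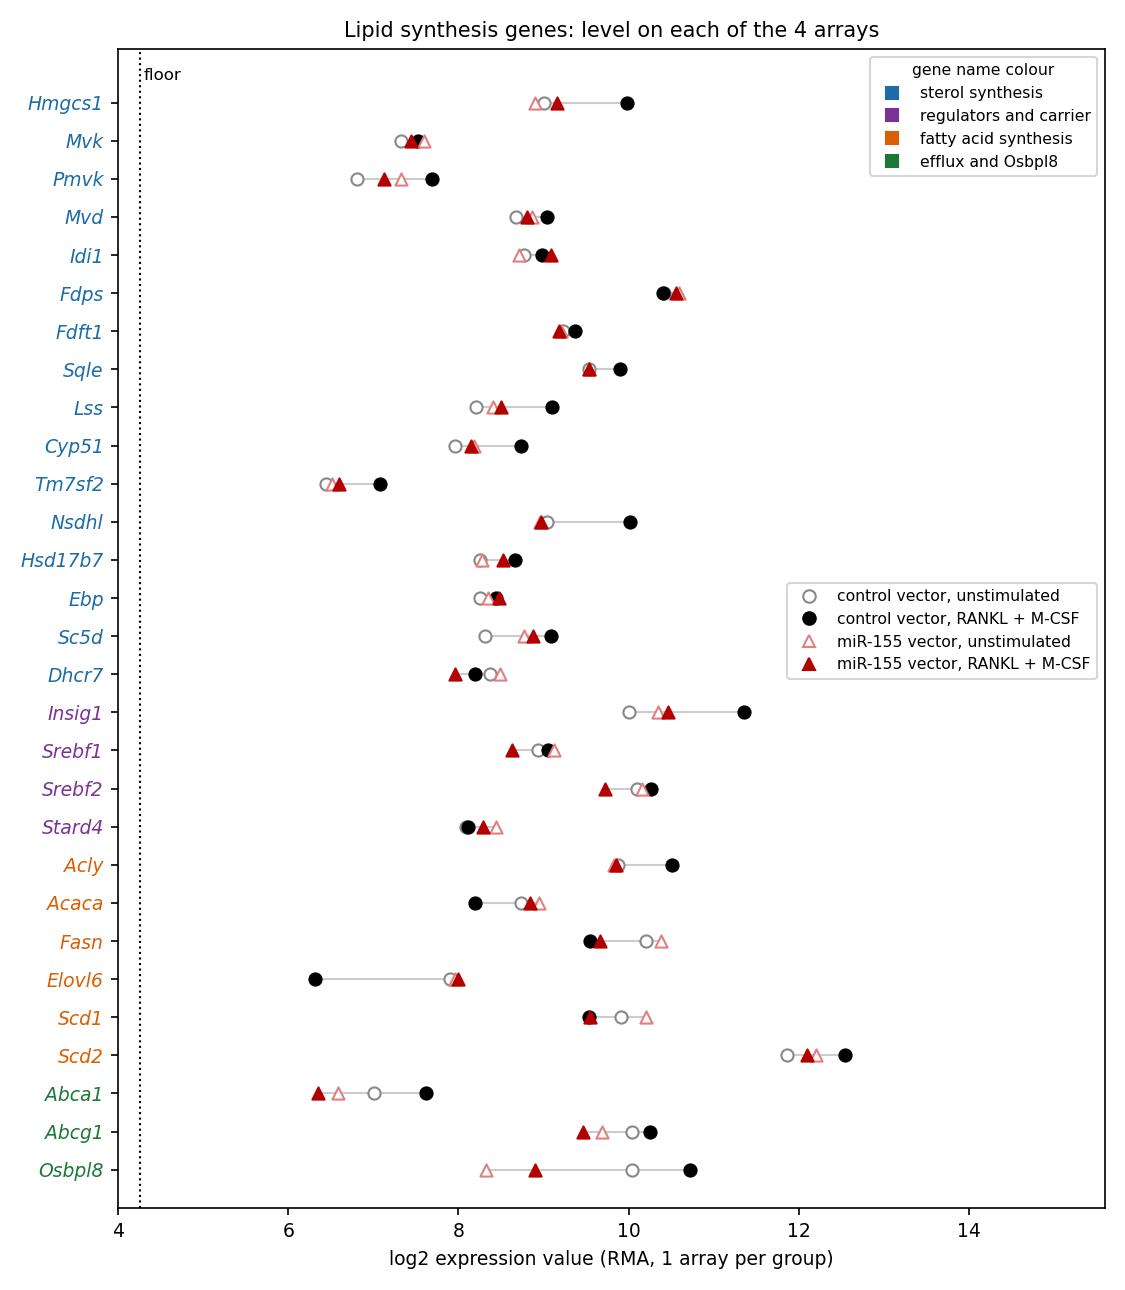
Log2 expression value of each of the 29 genes on the 4 arrays (horizontal axis, 1 point per array, circles for the control vector, triangles for miR-155, filled for stimulated cells), with gene names coloured by role and the floor dotted. The stimulated control array is the highest of the 4 for 18 of the 29 genes, and Osbpl8 is the gene whose miR-155 points both lie far below both control points.

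Control cells after 72 h of stimulation had higher levels of many sterol synthesis genes, and their fatty acid synthesis genes were divided. Of the 29 genes, 12 (41.4%) were at least 1.5-fold higher, against 12.4% of all genes above the floor, and 2 (6.90%) were lower, against 15.2%. The 12 were 7 sterol enzymes, Insig1, Acly, Scd2, Abca1 and Osbpl8, and the 2 were Elovl6 and Fasn. The median over the 29 was 0.37, that over all genes -0.02. The stimulated control array held the highest of the 4 values for 18 of the 29 genes (62.1%), against 35.0% of all genes. Nearest to the threshold were Abca1 at 0.61 inside it and Acaca at -0.55 outside it.

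The 16 sterol enzymes had a median of 0.39, and 14 of them lay above 0. The first enzymes of the mevalonate route were unequal. Hmgcs1, the synthase that makes HMG-CoA, stood at 9.0 in unstimulated and 9.98 in stimulated control cells, and at 8.90 and 9.16 in miR-155 cells. Its level in stimulated control cells was above the other 3 arrays, and its difference there was 0.97, or 1.97-fold. Pmvk, the kinase that phosphorylates mevalonate phosphate, stood at 6.81 and 7.68 in control and at 7.33 and 7.12 in miR-155 cells. The difference was 0.87 with the control vector and -0.21 with miR-155. The decarboxylase Mvd (0.37), the isomerase Idi1 (0.21) and mevalonate kinase Mvk (0.20) lay below the noise reference of 0.48 in control cells. Fdps, the farnesyl diphosphate synthase, stood at 10.42 and 10.41 in control and at 10.60 and 10.56 in miR-155 cells, which makes it the most even of the mevalonate enzymes over the 4 arrays.

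The enzymes from squalene to cholesterol had a higher median than the mevalonate enzymes, 0.52 against 0.29, with 5 of 10 and 2 of 6 past 1.5-fold. Nsdhl, a dehydrogenase that takes part in removing methyl groups from lanosterol derivatives, stood at 9.04 and 10.01 in control cells and at 8.96 and 8.97 in miR-155 cells. Only the stimulated control array was raised for this gene, the other 3 lying between 8.96 and 9.04. Lss, the cyclase that forms lanosterol, stood at 8.21 and 9.10 in control and at 8.40 and 8.50 in miR-155 cells. Its demethylase Cyp51 stood at 7.96 and 8.73 in control and at 8.19 and 8.15 in miR-155 cells. Both were thus higher with stimulation in control cells, by 0.89 and 0.78, and stood at 0.09 and -0.03 in miR-155 cells. The desaturase Sc5d (0.77) and the sterol reductase Tm7sf2 (0.63) were the other 2 past 1.5-fold. Hsd17b7 (0.41), the epoxidase Sqle (0.37), the isomerase Ebp (0.19) and squalene synthase Fdft1 (0.14) lay between 0 and the noise reference, and the last reductase of the route, Dhcr7, was at -0.17.

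Fdft1, Idi1 and Acaca have a second single-symbol probe set. The second one of Fdft1 was dimmer and gave 0.66 with stimulation in control cells, past 1.5-fold, where the brighter gave 0.14. Both gave values near 0 in miR-155 cells, -0.11 and -0.02. The second probe sets of Idi1 (0.07) and Acaca (-0.30) had the sign of the first in control cells. Which of the Fdft1 values follows the transcript more closely was not tested.

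Of the regulators, Insig1, which holds the SREBP escort in the endoplasmic reticulum and is itself an SREBP target, had the highest difference of the 29 genes. It stood at 10.00 and 11.35 in control cells, a difference of 1.35 or 2.55-fold, and at 10.35 and 10.47 in miR-155 cells. Among all genes above the floor, 475 had a higher difference in control cells. The SREBP genes themselves lay near 0 in control cells, Srebf1 at 0.13 and Srebf2 at 0.16, as did the sterol carrier Stard4 (0.03). In miR-155 cells Srebf1 went from 9.12 to 8.63 and Srebf2 from 10.16 to 9.72, differences of -0.50 and -0.44. These were past the noise reference of 0.42 for that comparison and within 1.5-fold.

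**Figure D2:**
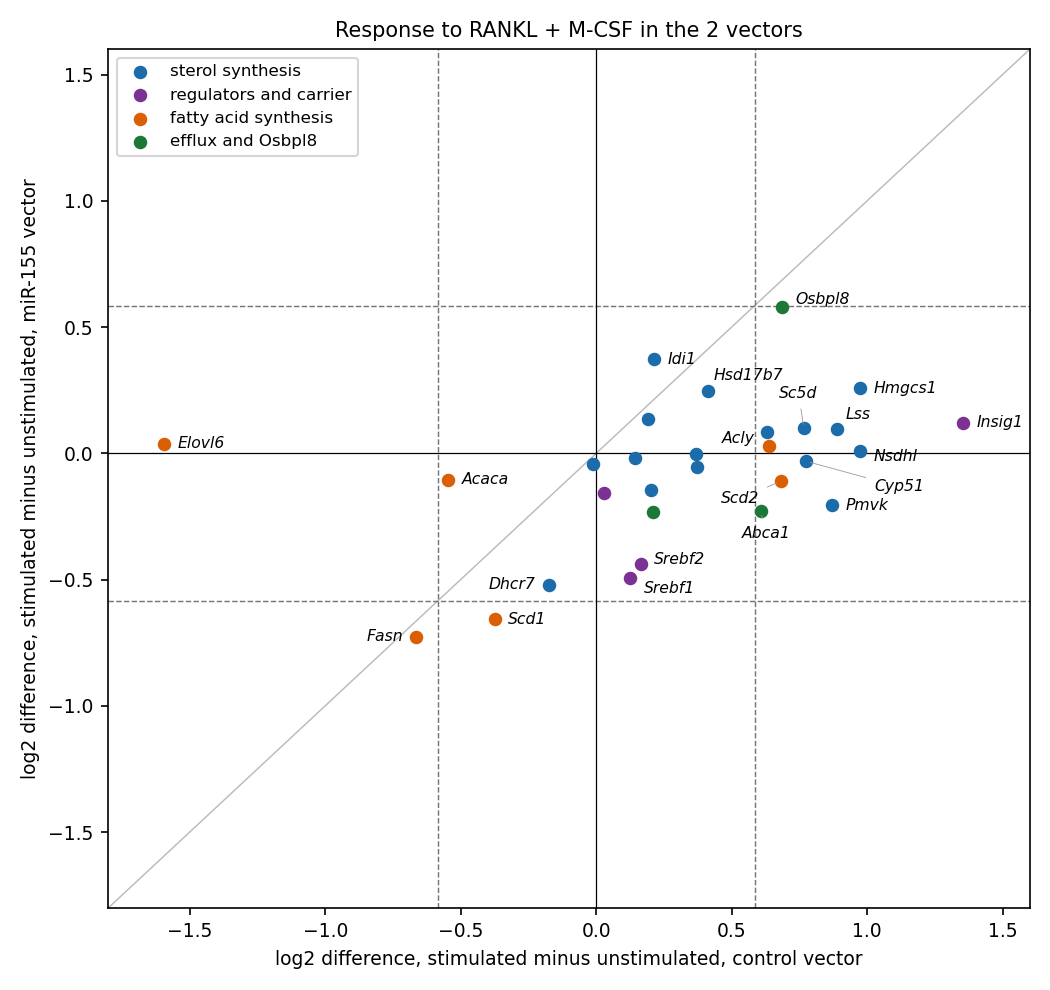
Log2 difference between stimulated and unstimulated cells for the 29 genes, with the control vector (horizontal) and with miR-155 (vertical), coloured by role, with dashed lines at 1.5-fold and the grey diagonal marking equal responses. The axes share no array. Insig1 (1.35 and 0.12) and Elovl6 (-1.60 and 0.04) lie farthest from the diagonal, while Fasn (-0.66 and -0.73) and Osbpl8 (0.69 and 0.58) lie close to it.

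Fatty acid synthesis genes split. Acly, which makes the cytosolic acetyl-CoA that both pathways use, stood at 9.87 and 10.51 in control cells (0.64) and at 9.83 and 9.86 in miR-155 cells. Scd2, a desaturase, stood at 11.86 and 12.54 in control (0.68) and at 12.21 and 12.10 in miR-155 cells. These 2 were higher past 1.5-fold with stimulation in control cells, as were 7 of the 16 sterol enzymes. Elovl6, which elongates palmitate to stearate, went the other way: 7.91 and 6.31 in control cells, a difference of -1.60 or 3.02-fold lower, and 7.96 and 8.0 in miR-155 cells. The stimulated control array alone was low for this gene, and the other 3 lay between 7.91 and 8.0.

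Fasn, the fatty acid synthase, stood at 10.21 and 9.55 in control and at 10.39 and 9.66 in miR-155 cells, so both stimulated arrays lay below both unstimulated ones. The differences were -0.66 and -0.73. Scd1, the other desaturase of this list, stood at 9.91 and 9.54 in control and at 10.21 and 9.55 in miR-155 cells, with the same order of states and differences of -0.38 and -0.66. Acaca, the carboxylase that makes malonyl-CoA, had -0.55 in control and -0.10 in miR-155 cells. The median of the 6 genes was -0.46 in control and -0.11 in miR-155 cells. Scd1 and Scd2 belong to a family of similar sequences, and how far their probe sets read each other's transcript was not tested.

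With the same treatment of miR-155 cells, 27 of the 29 genes (93.1%) lay within 1.5-fold, close to the 92.8% of all genes that did. None of the 29 was higher past that size, against 3.43% of all genes, and 2 (6.90%), Fasn and Scd1, were lower, against 3.74%. The sterol enzymes had a median of 0.00, with Idi1 highest at 0.37 and Dhcr7 lowest at -0.52. Osbpl8 stood just outside the threshold at 0.58 and passed it when the arrays were centred or normalised again. This comparison does not use the array that stood apart.

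No array is used in both responses, but their difference contains the control response, in which 23 of the 29 genes lay above 0. The counts below are thus not separate support for the higher levels in stimulated control cells. Compared directly, 26 of the 29 genes (89.7%) had a lower signed response in miR-155 than in control cells, against 52.8% of all genes. The difference of the responses was past 1.5-fold downward for 12 genes (41.4%), against 13.9% of all genes, and upward for 1, Elovl6 (1.63), against 14.5%. Insig1 (-1.23), Pmvk (-1.08), Nsdhl (-0.96), Abca1 (-0.84), Cyp51 (-0.81), Lss (-0.80) and Scd2 (-0.79) were the 7 lowest. Of these 13 differences, 10 were larger than the noise reference of this double difference, 0.64, the exceptions being Srebf1 (-0.62), Acly (-0.61) and Srebf2 (-0.60). Of the 12 genes higher in control cells, 0 were also higher past 1.5-fold in miR-155 cells, against 313 of 1673 over all genes (18.7%). Of the 2 lower ones 1, Fasn, was also lower there, against 217 of 2053 over all genes (10.6%).

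Between the vectors without stimulation, 28 of the 29 genes (96.6%) lay within 1.5-fold, close to the 95.7% of all genes, and Osbpl8 did not. None of the 29 was higher in miR-155 cells past 1.5-fold, against 1.18% of all genes, and 1 was lower, against 3.15%. The sterol enzymes had a median of 0.11 and 11 of 16 lay above 0, led by Pmvk (0.51) and Sc5d (0.46). Stard4 (0.36), Scd2 (0.35) and Insig1 (0.34) were next, below the noise reference of 0.37.

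With stimulation 8 genes (27.6%) were at least 1.5-fold lower in miR-155 than in control cells, against 13.6% of all genes, and 2 (6.90%) were higher, against 12.4%. This comparison uses the stimulated control array, as does the response of the control cells, so it is not separate support for the differences above. The 8 were Osbpl8 (-1.82), Abca1 (-1.26), Nsdhl (-1.04), Insig1 (-0.89), Hmgcs1 (-0.82), Abcg1 (-0.79), Acly (-0.65) and Lss (-0.60), and the 2 were Elovl6 (1.69) and Acaca (0.65). Cyp51 at -0.58 lay just outside the threshold, as did the second probe set of Acaca at 0.57.

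Of the 4 role groups, that of sterol export and oxysterol binding alone had every gene lower in miR-155 than in control cells in both states. Genes of sterol uptake and trafficking, described below, mostly lay lower as well. Of 8 above the floor, 6 did so without stimulation and 7 with it, against 50.1% and 52.5% of all genes. Abca1, the exporter that loads sterol onto apolipoprotein A-I, stood at 7.01 and 7.61 in control cells and at 6.58 and 6.35 in miR-155 cells. Abcg1, the exporter that works with HDL, stood at 10.04 and 10.26 in control and at 9.69 and 9.46 in miR-155 cells. For both genes the 2 miR-155 values lay below the 2 control values, by 0.43 and 0.35 without stimulation and by 1.26 and 0.79 with it. The unstimulated difference of Abcg1 was under the noise reference. With stimulation the control and miR-155 differences had opposite signs, 0.61 and -0.23 for Abca1, and 0.21 and -0.23 for Abcg1. Of these 4 values the 0.61 of Abca1 alone was past its noise reference.

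Osbpl8 encodes an oxysterol-binding-protein relative that exchanges lipids between the endoplasmic reticulum and the plasma membrane. It stood at 10.04 and 10.73 in control cells and at 8.32 and 8.90 in miR-155 cells, so that the groups of the 2 vectors were separated by more than either response. The miR-155 difference was -1.72, or 3.28-fold lower, without stimulation and -1.82, or 3.54-fold lower, with it, and these differences share no array. Stimulation came with 0.69 in control and 0.58 in miR-155 cells. Osbpl8 was the only 1 of the 29 genes lower past 1.5-fold in both states, against 1.22% of all genes. Without stimulation 10 genes had a lower value, with stimulation 128. Only 4 other genes were at least as low in both states, namely Gpnmb (-4.18 and -2.70), Ctsk (-2.45 and -2.22), Anpep (-2.41 and -3.67) and Gas6 (-1.78 and -3.08), which were picked out by these values.

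**Figure D3:**
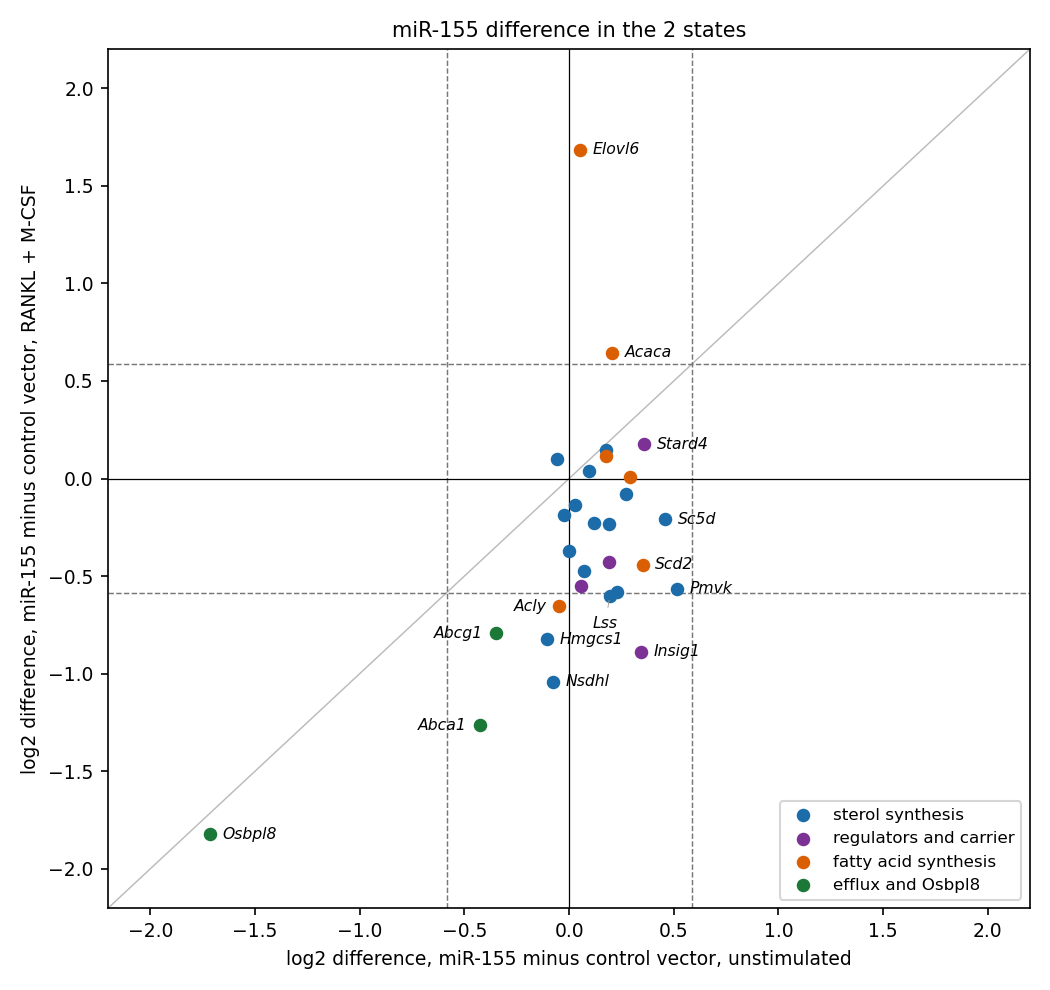
Log2 difference between miR-155 and control vector for the 29 genes, unstimulated (horizontal) and after RANKL and M-CSF (vertical), coloured by role, with dashed lines at 1.5-fold and a grey diagonal. The axes share no array. Osbpl8 (-1.72 and -1.82) lies near the diagonal and far from the rest, the sterol enzymes lie between -0.11 and 0.51 on the horizontal axis and between -1.04 and 0.15 on the vertical axis, and Elovl6 stands at 1.69 on the vertical axis.

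Of 10 relatives of Osbpl8 in the oxysterol-binding family above the floor, 0 were past 1.5-fold between the vectors without stimulation, where 1.18% of all genes were higher and 3.15% lower, so a count of 0 is near the background. Osbpl10 (-0.53), Osbpl11 (-0.41) and Osbpl7 (-0.37) were the lowest. With stimulation in control cells Osbpl9 (0.92) and Osbpl3 (0.59) were higher and Osbpl1a (-1.0) and Osbpl10 (-0.87) lower past 1.5-fold, and in miR-155 cells none of the 10 was past 1.5-fold. This and the following lists were drawn up by pathway, with earlier results of these data known. The genes named from them are mostly those with the largest differences. Their counts with stimulation stand against the same shares of all genes, 12.4% higher and 15.2% lower in control cells, and 3.43% and 3.74% in miR-155 cells.

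Other sterol synthesis genes were mixed in control cells. Msmo1, the sterol methyl oxidase, followed the enzymes above, at 11.04 and 11.92 in control cells and 11.16 and 11.24 in miR-155 cells. Lbr, a nuclear membrane protein with the same sterol reductase activity as Tm7sf2, stood at 10.69 and 8.80 in control and at 11.07 and 10.73 in miR-155 cells. The 2 genes for this reaction thus lay in opposite directions with stimulation in control cells, Tm7sf2 at 0.63 and Lbr at -1.89. Ggps1, the geranylgeranyl diphosphate synthase of the isoprenoid branch, was at -0.95 in control and 0.19 in miR-155 cells. Of 5 such genes above the floor 1 was higher and 2 lower past 1.5-fold in control cells, and none in miR-155 cells.

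Genes that process SREBP showed small differences. Of 6, Erlin2 (0.66) was past 1.5-fold with stimulation in control cells, Insig2 was at 0.58, under the threshold, in control cells, against 0.45 in miR-155 cells, and the SREBP escort Scap was at -0.42 and -0.20. Of 8 genes of sterol uptake and trafficking above the floor, 3 were higher and 1 lower past 1.5-fold with stimulation in control cells. Npc2, which carries cholesterol out of lysosomes with Npc1, stood at 9.47 and 11.03 in control and at 9.34 and 10.02 in miR-155 cells. Npc1 was at 0.70 and 0.03 with stimulation in control and miR-155 cells, the late endosomal sterol carrier Stard3 at 1.23 and 0.23, and the lysosomal acid lipase Lipa at -0.96 and 0.03. The HDL receptor Scarb1 was at -0.37 in control and -1.07 in miR-155 cells. Nceh1, a cholesteryl ester hydrolase, was the lowest between the vectors without stimulation. It stood at 9.21 and 9.02 in control and at 7.96 and 7.82 in miR-155 cells, -1.25 without and -1.20 with stimulation. The receptor Lrp1 (-0.64 and -0.59), Npc1 (-0.45 and -1.12) and Npc2 (-0.13 and -1.01) also lay below the control cells in both states. Without stimulation 2 of the 8 were lower past 1.5-fold, against 3.15% of all genes, and with it 5, against 13.6%. None was higher past 1.5-fold, though 2 lay above 0 without stimulation and 1 with it.

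The fatty acid list outside the 6 genes also split in control cells. Of 16 genes above the floor, 4 were higher and 4 lower past 1.5-fold. Me1, which makes NADPH for synthesis, and Mid1ip1, an activator of acetyl-CoA carboxylase, were each higher by 1.08. Fads2, the first desaturase of the long polyunsaturated route, stood at 11.37 and 8.73 in control and at 11.74 and 11.05 in miR-155 cells, -2.64 and -0.69. Fads1, the next desaturase of that route, was at -0.73 in both vectors. In miR-155 cells none of the 16 was higher past 1.5-fold and 2, Fads1 and Fads2, were lower. Of 9 LXR receptor and target genes, 0 were past 1.5-fold between the vectors without stimulation, again near the background, with the LXR partner Rxra (-0.50), the LXR gene Nr1h3 (-0.35) and the phospholipid transfer protein Pltp (-0.46) among the lowest. With stimulation 2 of the 9, Pltp (-0.96) and the sterol hydroxylase Cyp27a1 (-1.0), were lower past 1.5-fold in miR-155 cells, against 13.6% of all genes. None was higher, against 12.4%. In each state 3 of the 9 lay above 0.

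**Figure D4:**
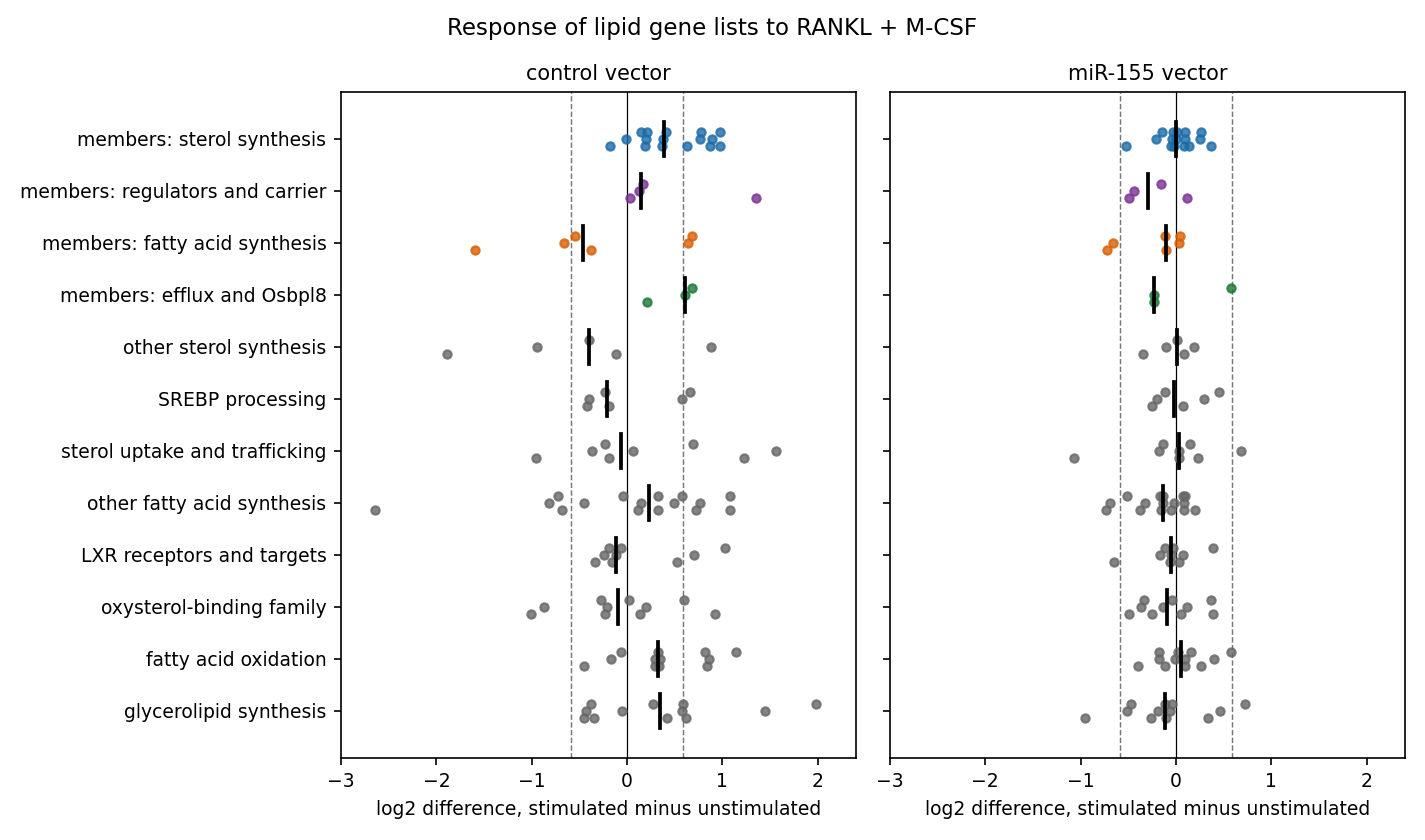
Log2 difference between stimulated and unstimulated cells (horizontal axis) for the 4 role groups of the 29 genes (coloured) and 8 neighbouring lipid lists (grey), with the control vector on the left and miR-155 on the right. Points are genes above the floor, black bars are medians and dashed lines mark 1.5-fold. The sterol enzymes have a median of 0.39 on the left and 0.00 on the right, and Fads2 at -2.64 is the lowest point on the left.

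The RefSeq promoter table (GRCm38.p6, windows from 250 bases before to 50 after a gene's start) held 22 of the 29 genes, 3 of them with more than 1 window. The windows were searched on both strands for the CCAAT box (CCAAT), bound by NF-Y, a partner of SREBP, for the E-box CACGTG, and for a sterol response element (TCACNCCAC). No motif overlaps another in the windows shown. A CCAAT box was present for 18 of the 22 genes, and for 13 of the 13 sterol enzymes in the table, against 41.1% of 27025 genes and 37.4% of all windows. For Dhcr7 and Pmvk it lay in only 1 of their windows. The E-box was present for 6 of the 22, namely Abca1, Dhcr7, Hsd17b7, Insig1, Osbpl8 and Sc5d, against 8.09% of genes and 7.15% of windows. The sterol response element, as this string, was present for Hmgcs1 alone, against 1.44% of genes and 1.24% of windows. Other forms of the element and sites outside the windows were not searched. A missing match thus does not show that a gene lacks the element. These are matches of letters and not measured binding.

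The 5 windows shown belong to genes picked for their differences or their number of motifs, with the matches in capitals (ATTGG is CCAAT on the other strand). Whether the motifs bear on the differences was not tested. Insig1 (chr5:28071162-28071461, plus strand) and Hmgcs1 (chr13:119690101-119690400, plus strand) have the highest differences in stimulated control cells. Mvk (chr5:114444019-114444318, plus strand) has 5 CCAAT boxes and a difference of 0.20. Elovl6 (chr3:129532136-129532435, plus strand) has the lowest difference in stimulated control cells, and Osbpl8 (chr10:111164552-111164851, plus strand) the lowest miR-155 difference in both states.
Insig1: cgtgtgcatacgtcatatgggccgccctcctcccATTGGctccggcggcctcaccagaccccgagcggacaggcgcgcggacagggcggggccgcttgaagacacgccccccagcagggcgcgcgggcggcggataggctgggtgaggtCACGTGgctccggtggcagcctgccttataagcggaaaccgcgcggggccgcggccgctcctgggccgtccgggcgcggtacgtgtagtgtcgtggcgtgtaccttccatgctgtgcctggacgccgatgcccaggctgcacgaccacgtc
Hmgcs1: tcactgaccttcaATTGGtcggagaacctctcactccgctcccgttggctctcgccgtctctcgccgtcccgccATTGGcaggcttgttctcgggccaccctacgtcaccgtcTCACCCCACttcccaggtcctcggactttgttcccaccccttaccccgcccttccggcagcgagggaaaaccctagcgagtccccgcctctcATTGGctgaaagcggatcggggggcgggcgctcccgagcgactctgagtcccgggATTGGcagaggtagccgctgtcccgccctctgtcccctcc
Mvk: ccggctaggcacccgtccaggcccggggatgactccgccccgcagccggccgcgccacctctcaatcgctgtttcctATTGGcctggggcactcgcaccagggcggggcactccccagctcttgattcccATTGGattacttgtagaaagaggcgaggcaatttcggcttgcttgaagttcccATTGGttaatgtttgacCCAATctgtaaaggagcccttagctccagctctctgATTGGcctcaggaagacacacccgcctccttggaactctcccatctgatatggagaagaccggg
Elovl6: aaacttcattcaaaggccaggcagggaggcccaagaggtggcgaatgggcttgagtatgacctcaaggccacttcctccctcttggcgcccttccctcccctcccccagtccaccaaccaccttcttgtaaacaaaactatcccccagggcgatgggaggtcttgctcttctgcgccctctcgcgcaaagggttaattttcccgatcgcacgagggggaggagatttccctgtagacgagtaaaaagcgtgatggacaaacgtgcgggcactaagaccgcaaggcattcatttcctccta
Osbpl8: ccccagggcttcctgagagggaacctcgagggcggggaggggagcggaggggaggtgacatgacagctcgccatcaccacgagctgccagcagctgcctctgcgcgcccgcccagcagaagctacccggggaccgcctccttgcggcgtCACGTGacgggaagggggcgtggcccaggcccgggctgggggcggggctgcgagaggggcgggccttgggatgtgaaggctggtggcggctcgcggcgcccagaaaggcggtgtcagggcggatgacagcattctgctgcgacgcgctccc
Hmgcs1 carried 4 CCAAT boxes and the response element, whose match TCACCCCAC ended 129 bases before the start. Insig1 carried 1 CCAAT box and 1 E-box, Osbpl8 1 E-box, and Elovl6 none of the 3 motifs.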

How the data were processed

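Per the labels' protocols, 100 ng of total RNA from each of the 4 groups was made into biotinylated cRNA and hybridised to Affymetrix mouse 1.0ST arrays. The authors deposited log2 values, a single value for each probe set on each array. The submitters' processing notes list RMA and Partek. For neither tool is a version given in the sources used here, nor is a build. RMA makes the distributions of probe intensities equal between arrays, so shifts in a cell's total RNA do not show. The probe set values were not exactly equal in distribution, since repeated quantile normalization moved medians by up to 0.07. Arrays give no read depth, and no detection calls were used.

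Of 35557 probe sets, 21789 had a single gene symbol in the platform annotation, 1621 several and 12147 none. Differences of log2 values were taken between arrays, with no test, and counted past 1.5-fold beside the same count over the 13541 genes above the floor. The 29 genes, the 8 neighbouring lists, the 5 marker lists and the floor were chosen with earlier results of these data known. All 29 genes may be named, of each neighbouring list up to 3 genes with the largest absolute difference per comparison, and every marker. Genes of these lists without a single-symbol probe set were not analysed here. The counting step was run on simulated data with large shifts and far less noise than the receptor probe sets show. That run checks the arithmetic and does not measure the error of the counts above. Alternatives were the mean of all probe sets of a gene, centred arrays, repeated quantile normalization, no floor, the 99th percentile as floor, and values under the floor set to it. A further one, without the stimulated control array, was chosen after seeing the data. Python 3.11.15, numpy 2.4.6, pandas 2.3.3 and matplotlib 3.10.9 were used.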

Additional observations from a re-analysis of the deposited data

Results flagged for a closer look

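Some genes lay in opposite directions in the vectors or in the states, with both values past the noise reference of their comparison. With 1 array per group this was not tested. Pmvk, the mevalonate phosphate kinase, was higher in miR-155 cells without stimulation (0.51) and lower with it (-0.56). Ggps1, the geranylgeranyl diphosphate synthase, was the reverse, at -0.61 without and 0.52 with stimulation. Lipa, the lysosomal acid lipase, was at -0.42 without and 0.57 with stimulation. Of the glycerolipid genes, the acyltransferase Agpat1 was at 0.58 with stimulation in control cells, against -0.96 with miR-155, and the methyltransferase Pemt at 0.59 and -0.51.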

How the results depend on the processing

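Counts of the 29 genes past 1.5-fold and medians of the 4 role groups, 30 values in all, were recomputed under 6 alternatives, and 12 of them also without the stimulated control array. No median reversed, and the largest shift of a median was 0.07, with quantile normalization repeated. The count of genes higher with stimulation in miR-155 cells was 0 as deposited and 1 with centred arrays, with repeated quantile normalization and without the stimulated control array, because Osbpl8, at 0.58, moved to 0.59, 0.61 and 0.61. The other counts stayed within 1.5 times: 12 genes higher and 2 lower with stimulation in control cells under every alternative tried, 7 to 9 lower between the stimulated vectors, and 10 to 12 lower for the difference of the responses. Counts that rest on the stimulated control array, namely those of stimulation in control cells, of miR-155 with stimulation and of the difference of the responses, have no value without it. Fdft1 depends on the probe set, with 0.14 and 0.66 in control cells. No paired analysis was possible because each group has 1 array.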

Other observations

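Glycerolipid synthesis genes, which use the same fatty acids, had a median of 0.35 with stimulation in control cells, with 4 of 12 genes higher past 1.5-fold and 0 lower, against 12.4% and 15.2% of all genes. In miR-155 cells the median was -0.11, with 1 higher and 1 lower, against 3.43% and 3.74% of all genes. Lpin1, a phosphatidate phosphatase, stood at 6.66 and 8.64 in control and at 6.26 and 6.99 in miR-155 cells, 1.98 and 0.73. Pcyt1a, the rate-limiting enzyme of phosphatidylcholine synthesis, stood at 8.0 and 9.44 in control and at 7.52 and 7.86 in miR-155 cells, 1.44 and 0.34. Lpin1 was thus higher past 1.5-fold in both vectors and Pcyt1a in control cells alone. The lipid droplet gene Plin2 was lower in miR-155 cells without stimulation (-0.77).

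Fatty acid oxidation genes had a median of 0.33 with stimulation in control cells, with 4 of 12 higher past 1.5-fold and 0 lower, against the same shares of all genes. In miR-155 cells the median was 0.06 with 0 of 12 past 1.5-fold in either direction, which is near the background there. Acads (1.15), Cpt2 (0.86) and Acadm (0.84), enzymes of mitochondrial oxidation, were the highest in control cells. The control cell values rest on the array that stood apart, and no test was run.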
